A study of Mus musculus with 20 samples.

Results

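The data described here are the striatal libraries of a mouse study of Helios, a transcription factor with zinc fingers whose gene is Ikzf2: 10 libraries, taken by their titles from the 20 of the series, which covers 2 tissues in 4 groups of 5. Of these, 5 were labelled Helios -/- (KO, replicates 6 to 10) and 5 wild type (WT, replicates 1 to 5). All were of the strain C57BL/6. Substrain, age and sex, and which part of Ikzf2 was targeted were not stated in the labels used here, nor whether each library came from a separate animal. Libraries were made with a stranded mRNA kit, and levels are the authors' RPKM, read numbers divided by gene length and by library size. The files used here lacked the decimal mark of values of 1 RPKM or more, and each mark was restored from the step that 1 read makes in its gene. From these values 24668523 to 30244207 reads could be recovered for each KO library and 27277842 to 36885030 for each WT library.

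Helios belongs to the Ikaros family of zinc finger factors, which bind DNA at sites with the core letters GGGAA and recruit chromatin remodelling complexes such as NuRD. In the developing striatum Helios is known from neurons that are leaving the cell cycle, where it has been tied to cell cycle exit and to the making of striatal projection neurons. Most striatal neurons are spiny projection neurons, which use GABA and fall into a direct pathway, marked by the dopamine receptor Drd1, and an indirect pathway, marked by Drd2.

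Markers of the labelled tissue were present in every library. Drd1 ran between 13.8 and 16.5 RPKM in KO libraries and between 9.66 and 17.2 RPKM in WT libraries. Ppp1r1b, which encodes the spiny neuron phosphoprotein DARPP-32, ran between 56.6 and 84.7 RPKM in KO libraries and between 41.8 and 69.5 RPKM in WT libraries. The young-neuron tubulin Tubb3 stood between 1098 and 1431 RPKM in KO libraries and between 1143 and 1492 RPKM in WT libraries. Genes of the cortical glutamatergic lineage were present too. Tbr1 ran between 33.2 and 79.4 RPKM in KO libraries and between 22.2 and 72.3 RPKM in WT libraries. Neurod2 ran between 29.1 and 93.6 RPKM in KO libraries and between 15 and 90.8 RPKM in WT libraries. The part of cortical tissue in these libraries was not tested.

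Some libraries stood apart from others with the same label. WT replicate 4 had a score of 40.75 on the first principal component, which held 35.5% of the variance, while the other 9 libraries lay between -11.8 and 5.35. In that library Col3a1, a fibroblast collagen, had 32.6 RPKM, against 0.419 to 1.08 RPKM in KO libraries and 0.288 to 1.46 RPKM in the other WT libraries. Xist, the RNA of the inactive X chromosome, was at or below 0.236 RPKM in KO replicate 10 and WT replicates 1 and 3, and between 110 and 158 RPKM in the others. The labels also held a code of 2 numbers for each library. The first number was 8 in KO replicates 7 to 10 and 6 in WT replicates 1 to 4, so that between those libraries genotype cannot be told apart from whatever that number records. Only KO replicate 6 and WT replicate 5 shared a first number, 7. A fit with this number as a block, added after seeing the data, therefore rests on that 1 pair, with the spread taken from the other libraries, and its values are given below where they change a count.

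Ikzf2 was lower in every KO library than in any WT library. It had 1.11, 0.842, 1.09, 0.849 and 0.76 RPKM in KO replicates 6 to 10, against 3.66, 2.81, 2.36, 2.09 and 2.31 RPKM in WT replicates 1 to 5. The KO mean of 0.929 ± 0.158 RPKM was 35.1% of the WT mean of 2.65 ± 0.623 RPKM (SD, n = 5 each). On the log2(RPKM + 1) scale used for all differences below, which understates changes of low genes, KO minus WT was -0.91 ± 0.11 (SE). An exact permutation test gave a two-sided p of 0.00794, the smallest this design allows, while the p adjusted over all genes by limma was 0.0933. Reads over the gene were therefore reduced but not absent in the KO libraries. Ikzf2 lies at chr1:69531207-69687351 of the mouse build mm10 (GRCm38).

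The 4 other family members were not lower by more than the spread between libraries. Ikzf1, the gene of Ikaros, averaged 14.8 ± 1.7 RPKM in KO libraries and 18.2 ± 6.7 RPKM in WT libraries (log2 difference -0.23, limma adjusted p = 0.985, and 0.18 with the first code number as a block). WT replicates 1 and 2, at 28.3 and 21.8 RPKM, carried that difference, and the other WT libraries lay between 12.6 and 14.6 RPKM, within the KO range of 12.3 to 16.6 RPKM. Ikzf4 (Eos) averaged 8.81 RPKM in KO libraries and 9.23 RPKM in WT libraries, and Ikzf5 (Pegasus) 9.89 RPKM in KO libraries and 10.1 RPKM in WT libraries, with log2 differences of -0.06 and -0.03 that turn positive without some single libraries, and for Ikzf4 also with that block. Ikzf3 (Aiolos) never exceeded 0.0192 RPKM and was too low for the test.

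**Figure D1:**
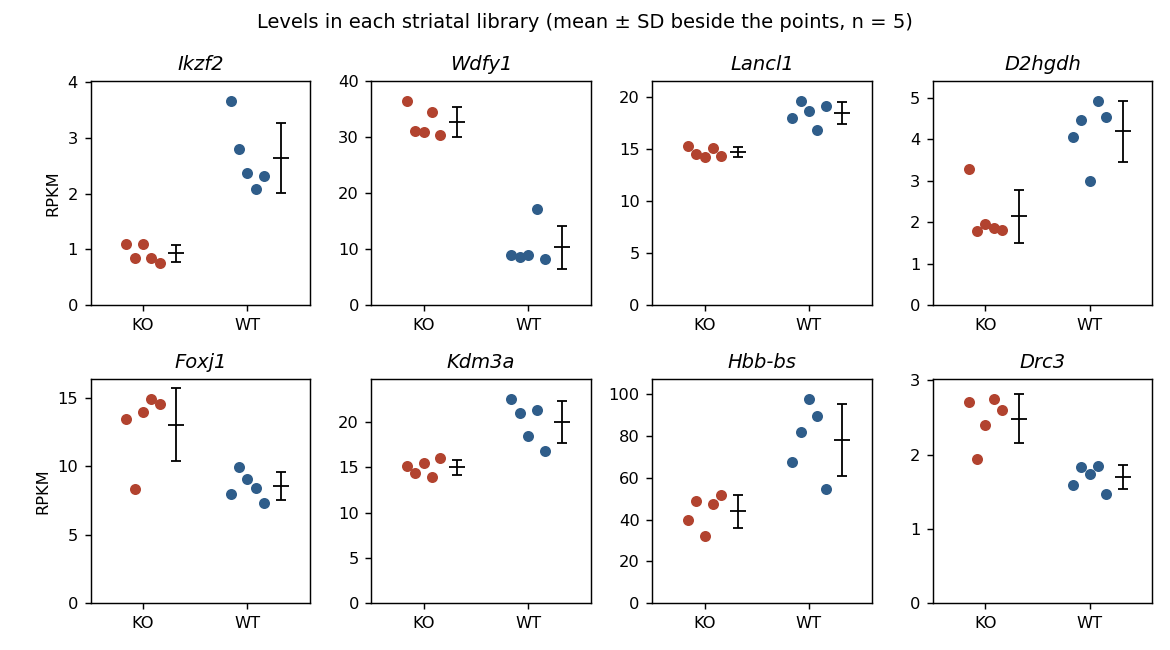
RPKM of 8 genes in each striatal library, KO left and WT right, with the mean ± SD of 5 libraries beside the points and each axis starting at 0. Ikzf2 is at or below 1.11 RPKM in KO libraries and at or above 2.09 RPKM in WT libraries, Wdfy1 is between 30.3 and 36.4 RPKM in KO libraries and at or below 17.2 RPKM in WT libraries, and Drc3 is between 1.94 and 2.75 RPKM in KO libraries and at or below 1.84 RPKM in WT libraries.

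Across the tissue, few genes separated the genotypes. Genes with at least 0.5 RPKM in at least 5 libraries were tested, 14684 in all, and limma called none of them at an adjusted p below 0.05. At an unadjusted p below 0.05, 592 genes passed (4.03%), of which 300 were higher (2.04%) and 292 lower (1.99%) in KO libraries. All 5 KO libraries lay above all 5 WT libraries in 48 genes (0.327%) and below them in 70 (0.477%), 118 together (0.804%). These shares are the background for every count below. The median log2 difference over all tested genes was -0.001334, and 49.3% of them were higher in KO libraries. A model of the recovered reads, limma voom, called Ikzf2 alone, with an adjusted p of 0.0372. Without KO replicates 7 and 10, a setting chosen after seeing the data, the log2 difference of Ikzf2 was -0.84, 359 genes were higher and 338 lower at an unadjusted p below 0.05, and limma again called none. With the first code number as a block Ikzf2 was at -0.65 (limma adjusted p = 0.984), and 364 genes were higher and 360 lower at the unadjusted threshold.

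Among the 12 genes with the smallest p in the higher direction, Sgpp2 came first. It encodes a sphingosine-1-phosphate phosphatase, and had 1.42, 0.992, 0.925, 1.38 and 1.16 RPKM in KO replicates 6 to 10, against 0.507, 0.684, 0.639, 0.619 and 0.676 RPKM in WT replicates 1 to 5 (log2 difference 0.42, limma adjusted p = 0.861). The groups did not overlap. Rnf167, a ubiquitin ligase of endosomes and lysosomes, likewise did not overlap, with 23, 26.1, 29.8, 28.2 and 29.8 RPKM in KO libraries and 16, 21.6, 20.8, 15.8 and 22.4 RPKM in WT libraries (log2 difference 0.49). Its difference was 0.04 with the first code number as a block. 1700016K19Rik averaged 1.9 ± 0.548 RPKM in KO libraries and 0.855 ± 0.253 RPKM in WT libraries, and 2410004I01Rik 1.93 ± 0.339 RPKM in KO libraries and 1.19 ± 0.288 RPKM in WT libraries (SD, n = 5 each), again with no overlap.

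The same 12 held Drc3, Rsph1 and Foxj1, described below with the list of motile cilia, and Arl6, which is not in that list. Arl6, a small GTPase that recruits the Bardet-Biedl coat complex to the base of cilia, averaged 14.2 ± 1.41 RPKM in KO libraries and 11.3 ± 1.03 RPKM in WT libraries, with 4 of the 5 KO libraries above every WT library. The others were Bok, an apoptosis regulator of the Bcl-2 family, at 47.1 ± 7.02 RPKM in KO and 34.1 ± 3.41 RPKM in WT libraries; Car8, a carbonic anhydrase relative, at 2.47 ± 0.373 RPKM in KO and 1.64 ± 0.306 RPKM in WT libraries; the noncoding RNA Celrr, at 0.708 ± 0.135 RPKM in KO and 0.373 ± 0.117 RPKM in WT libraries; and Aqp4, the water channel of astrocytes and ependyma (SD, n = 5 each). Aqp4 had 7.83, 4.61, 6.82, 8.34 and 6.38 RPKM in KO replicates 6 to 10, against 3.27, 3.94, 5.76, 4.41 and 3.87 RPKM in WT replicates 1 to 5. In Aqp4 only KO replicate 7 overlapped with the WT libraries. Celrr reached the 0.5 RPKM of the filter in KO replicates 6, 8, 9 and 10 and, among WT libraries, in replicate 3 alone. Its place among the tested genes therefore rests on its level in KO libraries.

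Of the 12 genes with the smallest p in the lower direction, Ikzf2 came first and Lancl1, a glutathione-binding protein of neurons, second. Lancl1 had 15.4, 14.6, 14.2, 15.1 and 14.3 RPKM in KO replicates 6 to 10, against 18, 19.6, 18.7, 16.9 and 19.2 RPKM in WT replicates 1 to 5 (log2 difference -0.31, limma adjusted p = 0.562). Maff, a small Maf transcription factor, had 1.5, 1.24, 1.45, 1.32 and 1.67 RPKM in KO libraries and 2.76, 2.24, 2.39, 2.88 and 1.98 RPKM in WT libraries (log2 difference -0.50). Neither gene overlapped between the groups.

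D2hgdh, a mitochondrial enzyme that oxidises D-2-hydroxyglutarate, had 3.29, 1.78, 1.97, 1.86 and 1.81 RPKM in KO replicates 6 to 10, against 4.06, 4.46, 3, 4.91 and 4.54 RPKM in WT replicates 1 to 5. KO replicate 6 stood above WT replicate 3, and the other KO libraries below all WT libraries. Txnip, the thioredoxin inhibitor that also restrains glucose uptake, averaged 14.7 ± 1.61 RPKM in KO libraries and 20.6 ± 2.73 RPKM in WT libraries (SD, n = 5 each). No overlap between groups was seen in Txnip, in the histone demethylase Kdm3a, in Asb1, Hbb-bs, Spem1 or Gm5237, in Dnpep, an aspartyl aminopeptidase, or in Haghl. The means of these last were 1.81 RPKM in KO and 2.68 RPKM in WT libraries for Gm5237, 0.542 RPKM in KO and 0.916 RPKM in WT libraries for Spem1, and 11.6 RPKM in KO and 14.3 RPKM in WT libraries for Haghl.

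Several of these genes are neighbours of Ikzf2 on chromosome 1. Within 20 Mb of Ikzf2, 202 genes were tested and 16 passed the unadjusted threshold (7.92%), 9 higher and 7 lower, against 3.95% of the 14340 genes that were not within 40 Mb. Within 40 Mb it was 25 of 343 (7.29%), and 7 of these did not overlap between the groups (2.04%, against 0.767% of the other genes). On the rest of chromosome 1 the share was 3.49%, and on the other chromosomes 3.97%. Chromosome 1 without Ikzf2 had 5.11%, a share close to the 5.25% of chromosome 11 and the 5.12% of chromosome 8. No test was made of these shares, and neighbouring genes are not independent. Genes linked to a targeted allele are inherited with it, and in this design linkage cannot be told apart from an effect of Helios on its neighbours.

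The neighbour with the largest difference was Wdfy1, an endosomal protein of Toll-like receptor signalling, whose gene starts 10.2 Mb from that of Ikzf2 (chr1:79702262-79776143). It had 36.4, 31.1, 31, 34.5 and 30.3 RPKM in KO replicates 6 to 10, against 8.92, 8.63, 8.93, 17.2 and 8.18 RPKM in WT replicates 1 to 5. Every KO library lay above every WT library, and WT replicate 4 stood alone between the groups. Wdfy1 was left out of the tested genes because the decimal marks of WT replicates 1, 2, 3 and 5 could also have stood 1 place further right, at 81.8 to 89.3 RPKM. With such genes kept in, it was the 1 gene limma called (log2 difference 1.61, adjusted p = 0.0171). The authors' deposited table gave a log2 fold change of 1.03 in the same direction, with an adjusted p of 9.73e-13.

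Hippocampal values of Wdfy1, in which no mark was unsure, had the same order by code. The hippocampal libraries with the codes of KO replicates 6 to 10 had 21.4, 21.5, 15.3, 23.4 and 23 RPKM, against 6.31, 7.11, 6.76, 15 and 7.99 RPKM in those with the codes of WT replicates 1 to 5. The code of striatal WT replicate 4 was again the highest of the WT codes. For code 7 the hippocampal titles give the opposite genotype from the striatal titles, and these values, like those of Ikzf2, followed the striatal titles.

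WT replicate 4 was also placed between the genotypes in 7 of the 9 neighbours, Wdfy1 among them, in which the other WT libraries did not overlap with KO. On the log2 scale it lay 51% of the way from the mean of the other WT libraries to the KO mean in Wdfy1, 44.8% in Lancl1, 51.4% in Ormdl1, which encodes a regulator of sphingolipid synthesis, 67.6% in Utp14b and 96.7% in Gmppa, a subunit of the GDP-mannose enzyme complex. In Dnpep and Asb1 it lay 28.9% and 29.6% of the way, and in Sgpp2 it was no nearer to the KO libraries, at -1.17%. In Cul3, the scaffold of a ubiquitin ligase, it lay on the far side, at 5.48 against a mean of 5.72 in KO and 5.62 in the other WT libraries (-144%). These neighbours were picked because they differed, so the positions are a description. What WT replicate 4 shares with the KO libraries was not tested.

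Further neighbours differed in both directions. Dnpep had 14.5, 17.5, 15, 14.8 and 18.6 RPKM in KO replicates 6 to 10, against 21.4, 20.8, 19.6, 19.7 and 24 RPKM in WT replicates 1 to 5. Asb1, which encodes an adaptor of a ubiquitin ligase, had 7.35, 5.9, 5.67, 5.96 and 6 RPKM in KO libraries and 8.14, 8.2, 7.9, 7.5 and 8.36 RPKM in WT libraries. Pign, an enzyme of GPI anchor synthesis 36 Mb from Ikzf2, had 4.19, 2.31, 2.61, 2.86 and 3.04 RPKM in KO libraries and 5.11, 4.83, 3.82, 5.05 and 4.3 RPKM in WT libraries. KO replicate 6 was the highest KO library in Asb1 and Pign, as it was in D2hgdh and Sgpp2, and it overlapped with WT replicate 3 in Pign. Bok, 24.1 Mb away, was higher in 4 of the 5 KO libraries than in any WT library, but with the first code number as a block its difference was -0.08. The log2 difference of Pign was -0.50, and -0.03 with that block.

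**Figure D2:**
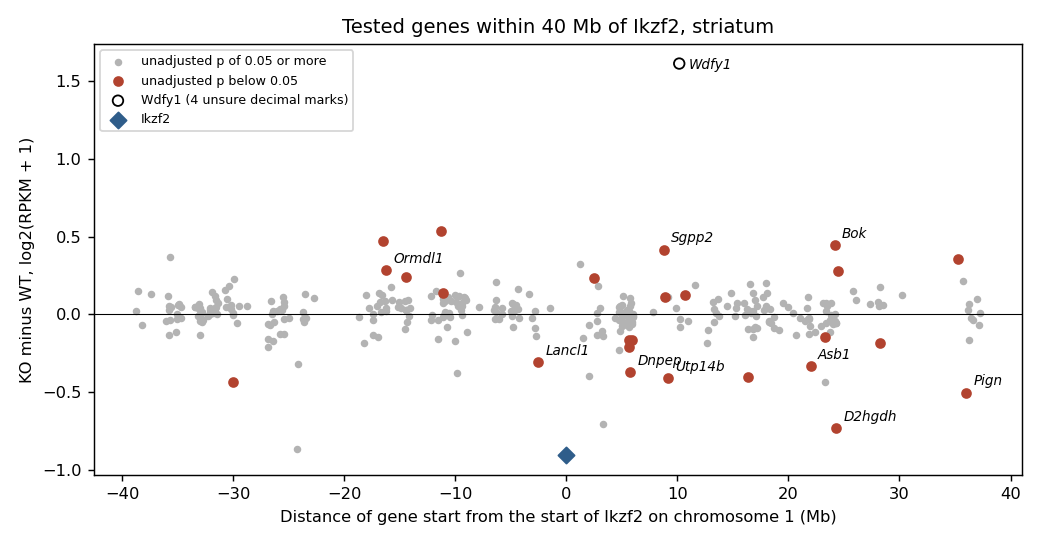
Log2 difference, KO minus WT, of each tested gene against the distance in Mb of its start from the start of Ikzf2, with genes at an unadjusted limma p below 0.05 in colour, Ikzf2 as a diamond and Wdfy1 as an open circle. Wdfy1 stands at 1.61 and Ikzf2 at -0.91, and the 25 coloured neighbours, 12 higher and 13 lower, lie between -0.73 and 0.53.

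The authors' own comparison of the striatum was read beside these values. Its mouse features were matched to genes by RefSeq transcript identifier, while the RPKM are by gene. The authors' deposited table gave an adjusted p for 12891 features and had 44 below 0.05 (0.341%). Of these, 28 were external spike-in RNAs, which are added to samples in known amounts and have no mouse gene. In the authors' deposited table they were 58.3% of the 48 spike-ins with an adjusted p, all higher in KO, with log2 fold changes of 0.37 to 1.05. Over the 48 the median in the authors' deposited table was 0.55, with 36 higher and 12 lower. The median over its mouse transcripts was 0.00026. What the spike-in difference records, such as unequal added volume or unequal RNA per sample, was not tested, and spike-ins were not part of the RPKM table.

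Apart from spike-ins, 16 of 12843 transcripts (0.125%) were called in the authors' deposited table, each of a different gene. Of these genes 11 were higher and 5 lower in KO, and 7 of the 16 lie on chromosome 1. All 16 had the same sign in the restored RPKM values, and in 8 of them the groups did not overlap. The 12 that were tested by limma all had an unadjusted p below 0.05, but since both analyses start from the same libraries this is not separate evidence. The strongest in the authors' deposited table were Ikzf2 (log2 fold change -1.15, adjusted p = 9.56e-18), Wdfy1 and Lancl1 (-0.82, adjusted p = 2.68e-12), all on chromosome 1.

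Off chromosome 1, the genes called higher in the authors' deposited table were 1700016K19Rik (log2 fold change 0.53), Maats1 (0.52), Mcidas (0.51), Car8 (0.44), Foxj1 (0.45), Spata18 (0.44), Drc3 (0.42) and Rnf167 (0.41). Maats1, also called Cfap91, and Drc3 are parts of the axoneme of motile cilia. Mcidas and Foxj1 are transcription regulators that switch on the programme of motile cilia. The 1 gene called lower off chromosome 1 in the authors' deposited table was P4ha1 (-0.42, adjusted p = 0.0463), a collagen prolyl hydroxylase that hypoxia induces.

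**Figure D3:**
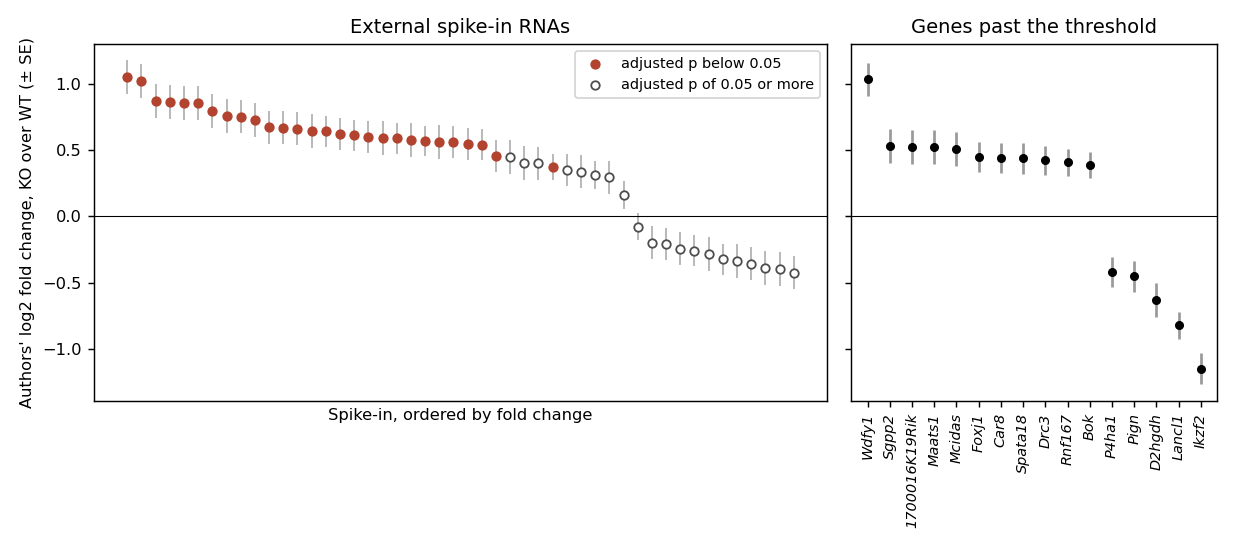
Log2 fold changes ± SE, KO over WT, from the authors' deposited table, for the 48 external spike-ins in the left panel and for the 16 genes with an adjusted p below 0.05 in the right panel. Filled spike-ins are the 28 with an adjusted p below 0.05, at 0.37 to 1.05, and among the genes Ikzf2 is at -1.15 and Wdfy1 at 1.03.

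Genes of motile cilia were higher in KO libraries as a group. Motile cilia move cerebrospinal fluid and are carried by ependymal cells, which line the ventricle beside the striatum. Of 44 listed genes 30 passed the filter on low values, and the mean of log2(RPKM + 1) was higher in KO libraries for all 30. In 14 this was at an unadjusted limma p below 0.05 and none in the other direction, against 2.04% higher and 1.99% lower over all genes tested. In 3, Drc3, Ccdc113 and Cfap43, every KO library was above every WT library. The median log2 difference of the 30 was 0.21, against -0.001334 over all tested genes, and in the authors' deposited table all 34 members with a value were higher, with a median of 0.26.

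Among the regulators, Foxj1, the forkhead factor that drives motile ciliogenesis, had 13.4, 8.33, 14, 14.9 and 14.6 RPKM in KO replicates 6 to 10, against 7.93, 9.94, 9.05, 8.38 and 7.27 RPKM in WT replicates 1 to 5 (log2 difference 0.54, limma adjusted p = 0.985). KO replicate 7 lay within the WT range, and the other 4 KO libraries above all WT libraries. Mcidas, the multicilin gene that commits a cell to many cilia, was below the filter, with 0.879, 0.484, 0.949, 0.674 and 0.781 RPKM in KO libraries and 0.141, 0.446, 0.416, 0.216 and 0.368 RPKM in WT libraries. Ccno, its neighbour on chromosome 13 that acts in centriole amplification, had 1.24, 0.691, 1.21, 1.51 and 0.919 RPKM in KO libraries and 0.55, 0.814, 0.696, 0.561 and 0.425 RPKM in WT libraries. The groups did not overlap in Mcidas, and in Ccno only KO replicate 7 overlapped. The RFX factors that act on ciliary genes differed less, with log2 differences of 0.14 in Rfx2 and 0.07 in Rfx3.

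Among structural genes, Drc3, of the dynein regulatory complex, had 2.71, 1.94, 2.4, 2.75 and 2.6 RPKM in KO replicates 6 to 10, against 1.59, 1.83, 1.74, 1.84 and 1.47 RPKM in WT replicates 1 to 5. Rsph1, of the radial spoke, had 2.36, 1.21, 2.2, 2.34 and 1.77 RPKM in KO libraries and 1.04, 0.983, 1.35, 1.2 and 0.923 RPKM in WT libraries. KO replicate 7 was the lowest KO library in both, inside the WT range in Rsph1 alone.

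The other ciliary genes at an unadjusted p below 0.05 were Ccdc113, Meig1, Cfap43, Zmynd10, Cfap206, Dynlrb2, Lrrc23, Cfap126, Ak7 and Tekt1, with log2 differences from 0.18 in Tekt1 to 0.62 in Lrrc23. Zmynd10, an assembly factor of dynein arms, averaged 2.86 ± 0.741 RPKM in KO libraries and 1.83 ± 0.485 RPKM in WT libraries, and Tekt1, a filament protein of the axoneme, 4.65 ± 0.426 RPKM in KO libraries and 3.99 ± 0.444 RPKM in WT libraries (SD, n = 5 each). Ciliary genes of dynein arms such as Dnaic1 and Dnaic2 had differences of 0.07 and 0.19 that did not pass. The 14 members below the filter included the dynein heavy chains Dnah5, Dnah6, Dnah9 and Dnah11, the highest of which reached 0.761 RPKM, and Spag6 and Spag16, whose means were lower in KO libraries.

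The promoters of ciliary genes are shown because these genes differed in the same direction and some carry letters known from ciliary promoters. Windows of 300 bases, from 250 before to 50 after the transcription start, were taken from RefSeq (GRCm38.p6) for 26 of the 30 tested ciliary genes, 32 windows in all. Capitals mark GTTGCC or its reverse complement, core letters of the X-box to which RFX factors bind. Other forms of that site were not searched for. The first 3 genes printed have it and Drc3 does not, nor do the windows of Meig1 and Cfap43 that were looked at beside them. Mcidas, below the filter, is shown in addition to the tested genes. In mouse GRCm38.p6 they are chr8:95533850-95534149 (plus strand) for Ccdc113, chr13:112987552-112987851 (plus strand) for Ccno, chr13:112993618-112993917 (plus strand) for Mcidas and chr11:60353130-60353429 (plus strand) for Drc3.
Ccdc113: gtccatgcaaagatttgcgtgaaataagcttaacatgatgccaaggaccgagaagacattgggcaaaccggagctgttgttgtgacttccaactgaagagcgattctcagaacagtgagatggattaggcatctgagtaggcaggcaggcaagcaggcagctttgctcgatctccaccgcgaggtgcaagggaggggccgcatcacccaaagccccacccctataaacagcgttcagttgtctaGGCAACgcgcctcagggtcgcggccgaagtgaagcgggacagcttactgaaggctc
Ccno: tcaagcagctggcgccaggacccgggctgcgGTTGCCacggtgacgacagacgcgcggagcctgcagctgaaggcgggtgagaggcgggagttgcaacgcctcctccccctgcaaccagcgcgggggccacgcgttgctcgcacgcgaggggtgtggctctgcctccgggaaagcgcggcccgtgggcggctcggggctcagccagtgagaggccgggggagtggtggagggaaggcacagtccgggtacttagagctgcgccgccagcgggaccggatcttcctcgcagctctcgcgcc
Mcidas: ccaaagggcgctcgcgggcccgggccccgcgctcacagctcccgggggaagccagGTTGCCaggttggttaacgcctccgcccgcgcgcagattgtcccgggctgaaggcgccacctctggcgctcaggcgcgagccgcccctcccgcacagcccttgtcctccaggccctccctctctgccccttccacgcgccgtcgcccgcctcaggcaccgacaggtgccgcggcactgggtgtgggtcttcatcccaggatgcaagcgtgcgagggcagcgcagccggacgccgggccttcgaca
Drc3: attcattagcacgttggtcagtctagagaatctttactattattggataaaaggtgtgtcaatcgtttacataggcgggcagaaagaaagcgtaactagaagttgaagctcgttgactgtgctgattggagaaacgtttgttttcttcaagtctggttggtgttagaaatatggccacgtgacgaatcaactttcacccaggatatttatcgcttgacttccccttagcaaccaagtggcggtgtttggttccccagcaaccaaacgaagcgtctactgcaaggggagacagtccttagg

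Searched on both strands, GTTGCC was in 15 of the 32 ciliary windows (46.9%), against 12.5% of all 32851 windows of that length. The Ikaros family core GGGAA was in 24 of them (75%), against 62.7% of all windows, and GTAAACA, the core letters bound by forkhead factors, in 2 (6.25%), against 3.65%. None of the 3 motifs contains another. Of the 15 genes with GTTGCC, 6 had an unadjusted p below 0.05, and of the 11 without it, 6. A match describes the letters of the window and does not show that a factor binds there.

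Values that moved with the ciliary list were these. The mean level of the 30 genes ran between 1.49 and 1.87 (log2 of RPKM + 1) in KO libraries and between 1.37 and 1.63 in WT libraries, with KO replicate 7 the lowest KO library and the 1 that fell within the WT range. In the pair of libraries with code 7, it was 1.83 in KO replicate 6 and 1.39 in WT replicate 5. Without that pair 8 members passed the unadjusted threshold, without KO replicate 7 it was 20, without KO replicate 9 or WT replicate 1 it was 9, without WT replicate 4 it was 12, and without KO replicates 7 and 10 it was 18. With a filter on the mean, at least 1 RPKM over the 10 libraries, it was 9, and with the first code number as a block it was 10, with a median of 0.48.

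Choroid plexus, which also carries motile cilia and lies in the same ventricle, was followed by Ttr, the transthyretin gene. Ttr had 15.6, 3.06, 1.56, 1.53 and 2.12 RPKM in KO replicates 6 to 10, against 0.211, 0.833, 0.0891, 2.67 and 0.482 RPKM in WT replicates 1 to 5 (log2 difference 1.34, limma adjusted p = 0.985). Every KO library lay above every WT library except WT replicate 4. Of the 12 choroid plexus markers 4 were tested, 2 higher and 2 lower, and their summed level over the list ran between 6.47 and 21 RPKM in KO libraries and between 3.91 and 25.6 RPKM in WT libraries. The mean level of the list was 1.33 to 2.07 (log2 of RPKM + 1) in KO libraries, against 0.887 to 1.03 in WT replicates 1, 2, 3 and 5 and 2.5 in WT replicate 4. The 2 lower members, Enpp2 and Clic6, had 17.1 and 2.68 RPKM in WT replicate 4 and at most 3.61 and 1.25 RPKM in any other library. The choroid markers Folr1, Kl and Kcne2 stayed below 1 RPKM in every library. The part of choroid plexus or of ventricular lining in the ciliary result was not tested, and in bulk tissue more cells of a type cannot be told apart from more RNA per cell.

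Genes induced by low oxygen were lower in KO libraries. Of 22 listed genes 20 were tested, 19 of which were lower, with a median log2 difference of -0.15. Of these, 7 were at an unadjusted p below 0.05, and none was higher at it, against 1.99% and 2.04% over all tested genes. Of 15 members with a value in the authors' deposited table, 13 were lower, with a median of -0.10. The 7 were Kdm3a, P4ha1, Slc2a1, Vegfa, Ddit4, Ankrd37 and Adm.

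Kdm3a, a demethylase of histone H3 that is a target of hypoxia-inducible factor, had 15.2, 14.4, 15.6, 14 and 16 RPKM in KO replicates 6 to 10, against 22.6, 21, 18.5, 21.4 and 16.8 RPKM in WT replicates 1 to 5 (log2 difference -0.39, limma adjusted p = 0.861). Slc2a1, the glucose transporter of the blood-brain barrier, had 11.8, 11.7, 12.3, 12.1 and 12.5 RPKM in KO libraries and 16.1, 15.2, 16.4, 20.9 and 12.7 RPKM in WT libraries. These were the 2 genes of the list without overlap, and in both WT replicate 5 was the WT library nearest to the KO libraries.

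Vegfa, the main vessel growth factor, averaged 23.5 ± 4.07 RPKM in KO libraries and 31.6 ± 4.03 RPKM in WT libraries (SD, n = 5 each). P4ha1 had 4.88, 5.74, 5.83, 6.4 and 5.88 RPKM in KO libraries and 8.8, 8.08, 7.79, 11.1 and 6.35 RPKM in WT libraries, with only WT replicate 5 inside the KO range. Ddit4, a brake on mTOR signalling, averaged 58.7 ± 6.67 RPKM in KO libraries and 79 ± 14.8 RPKM in WT libraries (SD, n = 5 each). Targets in glucose metabolism differed less, with log2 differences of -0.13 in Ldha, -0.17 in Pgk1 and -0.07 in Pdk1, none at an unadjusted p below 0.05. The mean level of the list was 3.48 to 3.59 in KO libraries and 3.56 to 3.93 in WT libraries, and WT replicate 5, the lowest of the WT libraries, lay within the KO range. In the code 7 pair it was 3.48 in KO replicate 6 and 3.56 in WT replicate 5, and with the first code number as a block 1 member passed in place of 7.

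Hemoglobin transcripts, from red cells and their precursors, were lower as well. Hba-a2 had 182, 206, 121, 228 and 234 RPKM in KO replicates 6 to 10, against 311, 443, 555, 487 and 245 RPKM in WT replicates 1 to 5 (log2 difference -1.04, limma adjusted p = 0.985). Hbb-bs had 39.7, 48.8, 32, 47.3 and 51.7 RPKM in KO libraries and 67.5, 82.1, 97.7, 89.5 and 54.7 RPKM in WT libraries (log2 difference -0.81). Alas2, the erythroid enzyme that starts heme synthesis, averaged 3.06 ± 0.614 RPKM in KO libraries and 5.34 ± 2.06 RPKM in WT libraries (SD, n = 5 each). The groups did not overlap in either hemoglobin gene, and WT replicate 5 was the lowest WT library in all 3. Reads of the near-identical hemoglobin genes cannot be told apart. Of 13 listed genes 5 were tested, and these 3 were at an unadjusted limma p below 0.05, all lower. Bpgm and Fech, which other cells also express, differed by 0.10 and 0.01. The authors' deposited table had a value for 3 members of the list, 2 higher and 1 lower, with a median of 0.02. With the first code number as a block none of the list passed.

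Vessel genes were followed beside them. Of 11 endothelial genes 8 were lower, 2 of them at an unadjusted p below 0.05: Slc2a1, already counted above, and Esam, an endothelial adhesion molecule, at 7.92 ± 0.365 RPKM in KO libraries and 8.81 ± 0.683 RPKM in WT libraries (SD, n = 5 each). Pecam1, the standard endothelial marker, differed by -0.12. Of 10 pericyte and smooth muscle genes 7 were lower, and the potassium channel gene Kcnj8 passed, at 3.69 ± 0.258 RPKM in KO libraries and 4.31 ± 0.255 RPKM in WT libraries (SD, n = 5 each). The summed endothelial level was 73.9 to 86 RPKM in KO libraries and 80.7 to 108 RPKM in WT libraries. The mean endothelial level in log2(RPKM + 1) was highest in WT replicate 4, at 2.80. It was 2.43 to 2.55 in the other WT libraries and 2.38 to 2.55 in KO libraries. The part of vessel or blood content in the hemoglobin and hypoxia values was not tested.

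All 13 protein genes of the mitochondrial genome were higher in KO libraries, by a median of 0.19 on the log2 scale, and 5 of them at an unadjusted p below 0.05. They encode subunits of the respiratory chain and ATP synthase. mt-Atp8 had 1234, 1251, 1104, 1268 and 1161 RPKM in KO replicates 6 to 10, against 1001, 991.4, 1004, 1076 and 1088 RPKM in WT replicates 1 to 5, and did not overlap. mt-Nd4 had 3435, 3284, 2869, 3501 and 2991 RPKM in KO libraries and 2489, 2569, 2903, 2740 and 3003 RPKM in WT libraries, with KO replicates 8 and 10 inside the WT range. mt-Co1 had a difference of 0.06 and did not pass. Most of these genes are cut from 1 long transcript, so they are not independent. The count was 1 without KO replicate 9, WT replicate 1 or WT replicate 2, 9 without KO replicate 8, and 0 with the first code number as a block.

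Spiny projection neuron genes differed little between the genotypes. Of 12 direct-pathway genes 8 were higher, with a median log2 difference of 0.03, and Tac1 alone passed the unadjusted threshold. Tac1, which encodes substance P, had 79.5, 46.3, 60.9, 73.3 and 90.5 RPKM in KO replicates 6 to 10, against 47.7, 66.5, 54.8, 52.8 and 42.8 RPKM in WT replicates 1 to 5. KO replicates 7 and 8 lay within the WT range, and the other 3 KO libraries above it. Drd1 and Pdyn, which encodes dynorphin, had differences of 0.22 and 0.27 that did not pass.

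Of 11 indirect-pathway genes 8 were higher and none passed, with a median of 0.05. Penk, the enkephalin gene, had 110, 37.3, 52.8, 63.9 and 57.1 RPKM in KO replicates 6 to 10, against 29.6, 63, 68.5, 45.1 and 40.4 RPKM in WT replicates 1 to 5, with KO replicate 6 the highest of all. Drd2 averaged 20 ± 4.91 RPKM in KO libraries and 19.7 ± 4.04 RPKM in WT libraries, and the transcription factor gene Sp9 33.6 ± 5.41 RPKM in KO libraries and 40.9 ± 7.71 RPKM in WT libraries (SD, n = 5 each). Of 21 genes shared by both pathways 17 were higher and none passed, and Ppp1r1b had a difference of 0.32 with an unadjusted limma p of 0.051. With 1 library left out, 0 to 5 of the shared genes passed, 5 of them without KO replicate 7, and 0 to 3 of the direct-pathway genes, 3 of them without WT replicate 2. With the first code number as a block, the medians of the direct, indirect and shared lists were 0.71, 0.66 and 0.55. That fit rests on KO replicate 6 and WT replicate 5. The mean level of the shared list was 5.56 in KO replicate 6 and 5.06 in WT replicate 5. That of the pallial list, described below, was 3.09 in KO replicate 6 and 4.44 in WT replicate 5. In these medians the code cannot be told apart from the tissue content of this pair.

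Within the striatal compartments, 4 of 8 striosome genes were higher and Lypd1, a modulator of nicotinic receptors, passed, at 9.13 ± 1.9 RPKM in KO libraries and 6.87 ± 1.4 RPKM in WT libraries (SD, n = 5 each). The striosome gene Oprm1, the mu opioid receptor, averaged 2.51 RPKM in KO libraries and 2.06 RPKM in WT libraries. Of 7 matrix genes 6 were higher and none passed; Calb1, calbindin, averaged 18.9 ± 4.38 RPKM in KO libraries and 14 ± 4.25 RPKM in WT libraries (SD, n = 5 each). The spread between replicates was of the same order as these differences.

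Dopamine and cAMP signalling genes were higher in 22 of 24 cases, by a median of 0.11, but only Oprd1, the delta opioid receptor, passed, at 1.5 ± 0.431 RPKM in KO libraries and 0.955 ± 0.3 RPKM in WT libraries (SD, n = 5 each). Gnal, the olfactory-type G protein that couples striatal Drd1 to adenylyl cyclase, had a difference of 0.28 and the cyclase gene Adcy5 one of 0.12. The mean level of the list ran between 4.30 and 4.75 in KO libraries and between 4.10 and 4.51 in WT libraries, with KO replicate 6 the highest and WT replicate 4 the lowest. Higher members past the threshold numbered 0 to 4 with 1 library left out, 4 of them without KO replicate 7, and 8 with the code block.

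Receptor genes of fast and slow transmission gave a few single differences. Of 20 GABA genes 15 were higher and 2 passed, Gabra4 at 7.35 ± 1.18 RPKM in KO libraries and 5.86 ± 0.968 RPKM in WT libraries, and Gabrb1 at 4.26 ± 0.595 RPKM in KO libraries and 3.19 ± 1.15 RPKM in WT libraries (SD, n = 5 each). Both encode subunits of GABA-A receptors. The GABA count was 0 to 5 with 1 library left out, 0 without KO replicate 6, KO replicate 9 or WT replicate 1 and 5 without WT replicate 3, and it was 8 with the code block. Of 19 glutamate receptor genes 12 were higher and 2 passed, the metabotropic receptors Grm5, at 54.2 ± 8.82 RPKM in KO libraries and 41.5 ± 9.08 RPKM in WT libraries, and Grm3, at 19.6 ± 1.72 RPKM in KO libraries and 15.8 ± 3.87 RPKM in WT libraries (SD, n = 5 each). Of 13 interneuron genes 8 were higher and none passed; Lhx8, a factor of cholinergic interneurons, ran between 5.18 and 18.4 RPKM in KO libraries and between 3.16 and 16.2 RPKM in WT libraries.

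Progenitor and cell cycle genes leaned the other way without passing. Of 17 transcription factor genes of ganglionic eminence progenitors 13 were lower and none passed, with a median of -0.14. Dlx2 had 38.9, 34.1, 51.8, 37.9 and 56.4 RPKM in KO replicates 6 to 10, against 49.4, 52.3, 51.6, 60.6 and 41.4 RPKM in WT replicates 1 to 5, and the groups overlapped. Of 18 regulators of entry into S phase 16 were lower and of 18 replication and mitosis genes 17, with medians of -0.12 and -0.14, and again none passed. Cdk2 averaged 5.25 ± 0.968 RPKM in KO libraries and 6.72 ± 2.39 RPKM in WT libraries, and Cdkn1c, a cell cycle inhibitor, 21.5 ± 6 RPKM in KO libraries and 26.5 ± 7.66 RPKM in WT libraries (SD, n = 5 each). WT replicate 4 was the highest library in the mean level of the S phase list, at 3.95, against 3.41 to 3.72 in KO libraries and 3.57 to 3.62 in the other WT libraries. In the replication and mitosis list WT replicate 4 had 3.945, against 3.16 to 3.82 in KO libraries and 3.32 to 3.52 in the other WT libraries. With 1 library left out, the S phase median ran between -0.17 and -0.04. The replication and mitosis median then ran between -0.23 and -0.05. Members of a list are expressed in the same cells, so a count of the same sign over them is not a count of separate results.

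Genes of young neurons did not lean either way: 7 of 13 were higher and 6 lower, with a median of 0.0045. Of 8 tested genes of the pallial glutamatergic lineage, which belongs to cortex and not to striatum, 5 were lower and Neurog2 passed, at 3.08 ± 1.33 RPKM in KO libraries and 5.76 ± 2.35 RPKM in WT libraries (SD, n = 5 each). Another 7 of the 16 listed genes had an unsure mark, and with the marks kept in 6 of them were lower, none past the threshold. In the authors' deposited table all 14 members with a value were lower, with a median of -0.03. In the RPKM values 3 of the 8 tested were higher in KO libraries: Neurod2 (log2 difference 0.32), Tbr1 (0.17) and Neurod1 (0.04). With the code block the medians of the young neuron and pallial lists were -0.42 and -1.32, with 4 and 3 members lower past the threshold. The cortical factor gene Fezf2 varied far more between libraries than between groups, from 0.278 to 14.9 RPKM in KO libraries and from 3.58 to 16.3 RPKM in WT libraries.

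Among glia, the list of oligodendrocyte precursors had 9 of 10 genes higher, with a median of 0.15, and 3 passed. Bcas1, which marks newly forming oligodendrocytes, had 1.69, 1.28, 1.74, 1.71 and 1.5 RPKM in KO replicates 6 to 10, against 0.918, 0.905, 1.46, 0.637 and 1.16 RPKM in WT replicates 1 to 5, with KO replicate 7 below WT replicate 3. Olig1 and Gpr17 were the others, at 40.8 ± 3.59 RPKM in KO libraries and 31.4 ± 7.76 RPKM in WT libraries for Olig1 and 7.11 ± 1.3 RPKM in KO libraries and 5.17 ± 1.68 RPKM in WT libraries for Gpr17 (SD, n = 5 each). In Olig1, Gpr17 and Bcas1 WT replicate 4 was the lowest library. The number that passed was 1 without KO replicate 9, 5 without KO replicate 10, 6 without WT replicate 3 and 0 with the first code number as a block.

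Of 13 astrocyte genes 7 were higher and Aqp4 alone passed, while Gfap averaged 0.677 RPKM in KO libraries and 0.568 RPKM in WT libraries. None of 12 microglial genes passed, with 9 higher and a median of 0.05. Meningeal fibroblast genes had the lowest median apart from the hemoglobin list, -0.45, but without WT replicate 4 it was -0.04. Crabp2, a retinoic acid binding protein, was the 1 of the 8 tested meningeal genes that passed, at 1.94 ± 0.35 RPKM in KO libraries and 3.38 ± 1.7 RPKM in WT libraries (SD, n = 5 each). Of 5 oligodendrocyte genes 4 were higher and none passed.

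Chromatin partners and activity genes gave 1 or 2 members each. Of the 15 NuRD genes 10 were lower and Chd4, its remodelling ATPase, passed, at 42.9 ± 1.75 RPKM in KO libraries and 47.5 ± 1.68 RPKM in WT libraries (SD, n = 5 each). Of 16 immediate early genes, which neuronal activity and handling induce, 10 were lower, Maff among them, and Fosl2, of the Fos family, was higher, with 14.9, 14.7, 13.9, 15.4 and 12.4 RPKM in KO replicates 6 to 10, against 13, 13.7, 10.1, 9.34 and 10.8 RPKM in WT replicates 1 to 5. In Fosl2 only KO replicate 10 fell within the WT range. The lower members at the threshold were 1 with all libraries, 5 without WT replicate 5 and 0 with the code block, under which 7 members were higher.

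**Figure D4:**
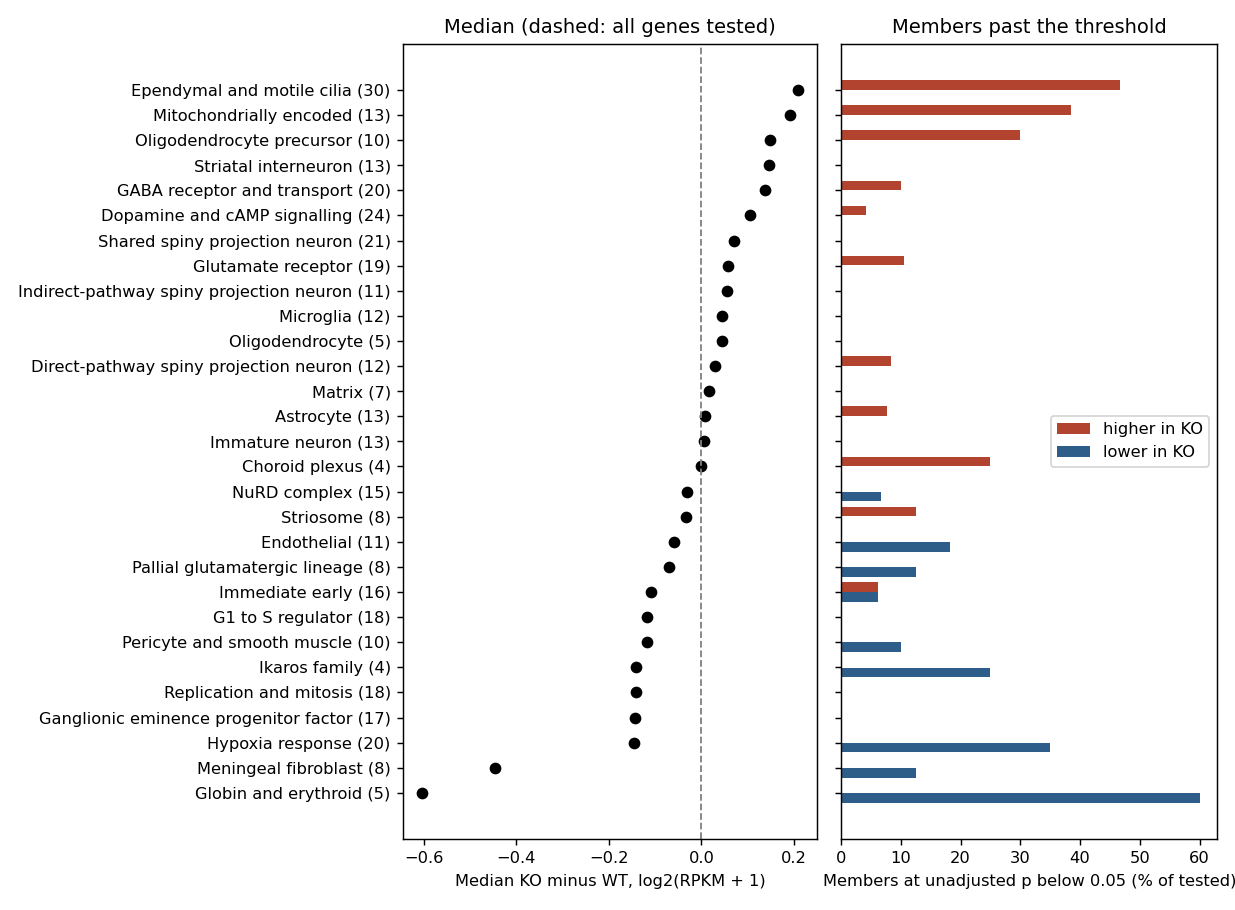
Left, the median log2 difference, KO minus WT, of the tested members of each gene list, with the number tested in brackets and the median of all tested genes dashed. Right, the percentage of tested members at an unadjusted p below 0.05, higher in KO above lower in KO; the ciliary list has 14 of 30 higher and the hypoxia list 7 of 20 lower, against 2.04% higher and 1.99% lower over all genes.

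**Figure D5:**
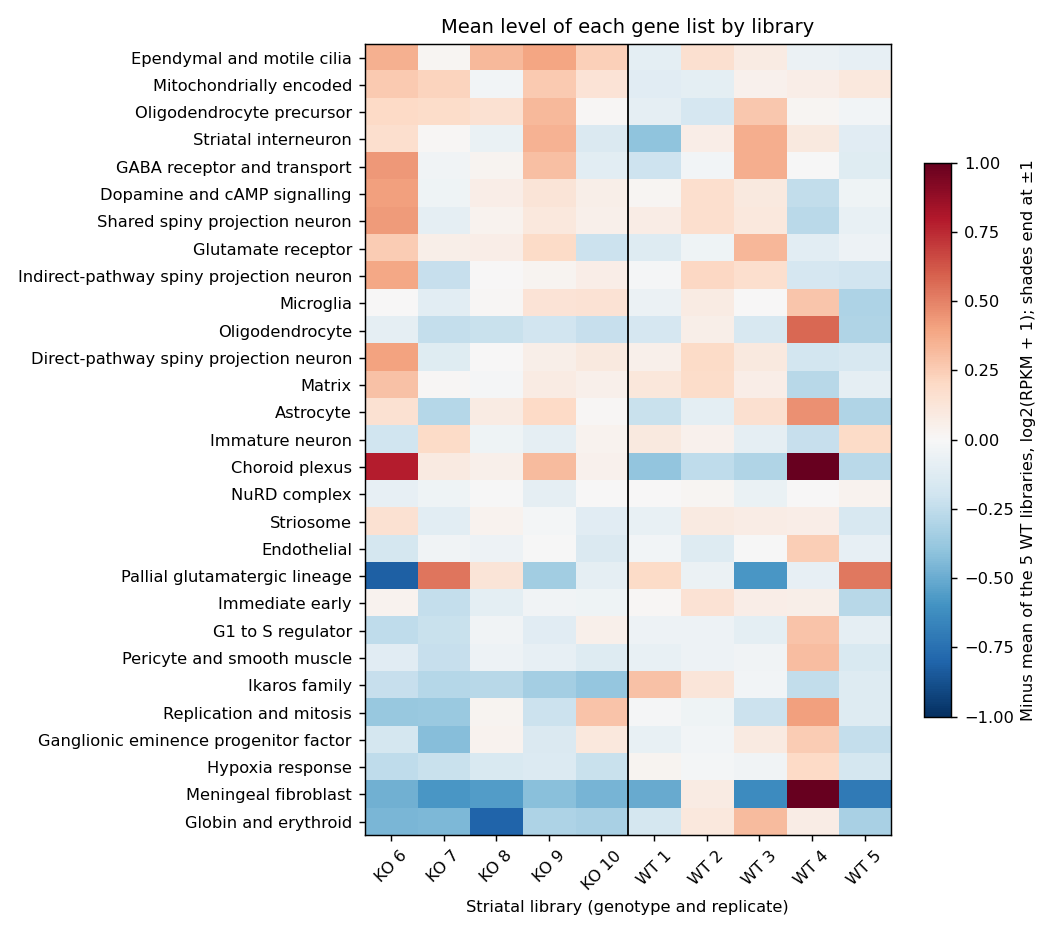
Mean level of each list in each library, KO replicates left and WT replicates right, as its difference from the mean of the WT libraries in log2(RPKM + 1), with shades that end at 1 in each direction. The ciliary list is above the WT mean of 1.47 in all KO libraries, and WT replicate 4 stands out in the meningeal, choroid plexus and oligodendrocyte lists.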

How the data were processed

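RNA of 10 striatal libraries was analysed, grouped by their titles. Per the labels' protocols, the kit was a stranded TruSeq mRNA kit and a NextSeq500 gave single reads of 75 bp. The submitters' processing notes name BWA 0.7.4, cutadapt 1.3, featureCounts, HTSeq, DESeq2, SAMtools, FastQC 0.11, bcl2fastq 2.15.0, CASAVA 1.8.2 and the build mm10, without roles or order.

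The authors deposited RPKM for 27179 genes and, in a table of their own comparison, log2 fold changes, standard errors, p-values and adjusted p-values. In both tables the files used here lacked the decimal mark of any value of 1 or more, in 50.9% of the striatal RPKM values. Each was restored where the value gave whole reads (within 0.001) for 1 gene length over all libraries, and, among several such places, closest to what the gene had elsewhere. Restored values therefore lean toward the other libraries. Genes with an unsure mark, 355 in striatum, were left out, and a gene that differs strongly between groups, as Wdfy1 does, is more likely to be among them. Both steps were first tested on simulated data. In the authors' table, fold changes and standard errors were restored so that their ratio gave the deposited test statistic. P-values recomputed from that statistic equalled 99.7% of the deposited p-values, and the adjusted p-values from them 99.9% of the deposited adjusted p-values. The smallest, whose exponents were damaged, are given as recomputed.

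Because the deposited values are RPKM and not read counts, the planned count test was not used. limma 3.58.1 (trend and robust) in R 4.3.3 compared log2(RPKM + 1), KO minus WT, with no covariate, in genes of at least 0.5 RPKM in at least 5 libraries, with Benjamini-Hochberg adjustment over all of them. Depth was 24668523 to 36885030 recovered reads per library, and the KO values of Ikzf2 rest on 191 to 277 reads. No 2 replicates agreed within counting noise (smallest chi-square per degree of freedom 11.8 over 20 pairs). Since separate animals are not stated, p-values describe only how these libraries vary, which may be technical. Nor is it stated whether counting used strand, and overlapping or near-identical genes cannot be separated. Positions are of GRCm38 and matched by Entrez identifier, with a symbol for 25293 genes.

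The text names the Ikaros family, the 12 genes with the smallest p in each direction, up to 4 members of each of 29 lists (all members of lists with 8 or fewer tested), and up to 10 genes in each direction of the authors' calls. Other ciliary, hypoxia, mitochondrial and marker genes, Spata18 and neighbours of Ikzf2 were added after their values were seen. The members and lists were chosen with earlier results of these data known. Lists got counts and medians but no test. Where a listed gene had several transcripts in the authors' deposited table, that with the smallest p was used. A few listed genes are not reported here. The settings tried were other pseudocounts, filters, scalings, models and left-out libraries, and the first code number as a block, which was added after seeing the data.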

Additional observations from a re-analysis of the deposited data

Results flagged for a closer look

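A library that lay far from the other 4 of its group was found in 10 of 118 groups examined, named genes and mean levels of gene lists together, and chance gives about 1 in 20. KO replicate 6 was such a library in 2410004I01Rik, at 2.52 RPKM against 1.69 to 1.88 RPKM in the other KO libraries, in D2hgdh, at 3.29 RPKM against 1.78 to 1.97 RPKM, and in Asb1, at 7.35 RPKM against 5.67 to 6 RPKM. In D2hgdh and Asb1 this put it nearest to the WT libraries, and in 2410004I01Rik farthest from them. Foxj1 was low in KO replicate 7, at 8.33 RPKM against 13.4 to 14.9 RPKM in the other KO libraries. Wdfy1 was high in WT replicate 4, at 17.2 RPKM against 8.18 to 8.93 RPKM in the other WT libraries.

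Among the mean list levels in log2(RPKM + 1), KO replicate 6 was highest in the matrix list, at 4.98 against 4.68 to 4.76. WT replicate 4 was highest in regulators of entry into S phase, at 3.95 against 3.57 to 3.62, in pericyte and smooth muscle genes, at 2.94 against 2.48 to 2.60, and in choroid plexus genes, at 2.5 against 0.887 to 1.03. WT replicate 3 was highest in glutamate receptor genes, at 3.90 against 3.43 to 3.52.

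The external spike-in RNAs, which the comparison of mouse genes does not use, had a median log2 fold change of 0.55, KO over WT, in the authors' deposited table. The cause of none of these values was tested.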

How the results depend on the processing

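Over 21 other settings, the log2 difference of Ikzf2 stayed negative, between -1.52 and -0.65, with limma adjusted p-values from 0.0372 to 0.984. Limma called 0 genes in all settings except voom on recovered reads, which called 1 (Ikzf2, at -1.52 on its own scale), and with unsure marks kept in, which called 1 (Wdfy1). At an unadjusted p below 0.05, 482 genes were higher and 467 lower with no filter on low values, when more genes are tested, and the neighbours of Ikzf2 were then 31 within 20 Mb and 46 within 40 Mb. Leaving out 1 library at a time gave 150 to 469 higher and 167 to 450 lower genes, 11 to 19 neighbours within 20 Mb and 17 to 27 within 40 Mb. The lowest counts were 150 and 167 without KO replicate 9, and the counts were 189 higher and 189 lower without WT replicate 2. The count was 469 higher without WT replicate 3 and 450 lower without KO replicate 10. The cause of these moves was not tested. With the first code number as a block, which leaves 1 pair of libraries for the genotype, Ikzf1 was 0.179, Ikzf4 0.174 and Bok -0.0822, all of the other sign. Signs turned in 2 family members in further settings. With 1 library left out, Ikzf5 ran between -0.072 and 0.0115 and Ikzf4 between -0.13 and 0.025: Ikzf5 was 0.0115 without KO replicate 6 and 0.000535 without WT replicate 1, and Ikzf4 was 0.022 without KO replicate 10, 0.025 without WT replicate 3 and 0.039 without KO replicates 7 and 10, a setting chosen after seeing the data. Ciliary genes at the threshold numbered 8 to 20, with a median of 0.18 to 0.48, hypoxia genes 1 to 8, and mitochondrial genes 0 to 9, with the lowest of both in the fit with the code block. No paired analysis was possible because KO and WT libraries share no replicate number, and their 1 shared code number gives the single pair of the block fit. Genes below the filter, such as Mcidas with 9 to 36 reads in WT libraries, were not tested.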
